A study of Mus musculus with 26 samples.

Results

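The comparison described here sets inner cell masses cultured with LY294002 (LY) on top of added FGF4 against inner cell masses cultured with FGF4 alone. Its members are the libraries whose labels give the treatment LY+FGF4 or FGF4, which are 14 of the 26 libraries of the series, 6 with LY+FGF4 and 8 with FGF4. The inner cell mass (ICM) is the clump of cells inside the blastocyst that forms the embryo proper and the yolk sac endoderm. Every library held the polyadenylated RNA of 1 whole ICM of an outbred CD-1 mouse embryo, read with FLASH-seq, a full-length protocol made for single cells. E2.75 morulae, from 5 litters that had been mixed, were kept in culture for 24 hours in KSOM medium, and then lost the zona pellucida and the outer cells by immunosurgery. The FGF4 group received FGF4/heparin at 1 µg/ml, and the LY+FGF4 group received the same together with LY at 10 µM. The other groups of the series were the DMSO vehicle (5 libraries) and LY alone (7 libraries). Each library was a separate embryo, the labels do not name its litter, and all labels carry the same date. A bulk ICM mixes cell types, so fewer cells of a type and less RNA per cell cannot be told apart.

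LY blocks phosphoinositide 3-kinase (PI3K), the enzyme that makes the membrane lipid which recruits and activates the kinase AKT, and it is also known to act on mTOR and other kinases. PI3K and AKT carry growth factor and insulin signals to mTORC1, which drives protein, nucleotide and lipid synthesis, in part through the transcription factors ATF4 (amino acid supply and tRNA charging) and SREBP (cholesterol and fatty acids). In the ICM, FGF4 made by future epiblast cells pushes their neighbours towards primitive endoderm, the layer that lays down the first basement membrane. The activity of PI3K, AKT or ERK was not measured in these libraries.

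With LY on top of FGF4, 8 of 21 ATF4 and stress-response effectors and 10 of 23 cytosolic enzymes that charge tRNAs fell. Of all genes tested 2.83% fell. No member of either list rose, against 0.723% of all genes. With the lower gene number of LY+FGF4 libraries accounted for in 4 ways, 4 and 5 of these falls held. The stress-response gene Nupr1 was 31 times lower in mean TPM, and the glutathione-degrading enzyme Chac1 was at 0 in each of the 6 LY+FGF4 libraries and above 0 in each of the 8 FGF4 libraries. Mthfd2 of mitochondrial folate metabolism, Psat1 of serine synthesis and the lipid desaturase Scd2 were lower as well. Ferritin, which stores iron, metallothionein, which binds zinc and other metals, and the ubiquitin ligase adaptor Fbxo2 were higher. The primitive endoderm factors Gata4, Gata6 and Sox17 did not pass the test.

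The LY+FGF4 libraries listed fewer genes than the FGF4 libraries, and this touches every result below. The number of genes at a TPM of at least 1 (TPM is the share of a library's transcripts on a fixed total, corrected for gene length) was 10076.2 ± 967.3 (SD, n = 8) with FGF4 and 8653.8 ± 704.7 (n = 6) with LY+FGF4, a difference of -1422.4 genes (two-sided exact permutation test, p = 0.014). FGF4 libraries held 8315 to 10871 such genes and LY+FGF4 libraries 7486 to 9534, so the groups overlapped. Under 9000 were 2 FGF4 libraries (replicates 2 and 3) and 4 LY+FGF4 libraries (replicates 2, 3, 5 and 8). The gap was widest among genes of low and medium level. Of the 1683 genes with a mean of 10 to 20 TPM, the median FGF4 library listed 7.64% at 0 and the median LY+FGF4 library 27.86%, whereas of the 2184 genes with a mean of 100 to 1000 TPM these shares were 1.12% and 1.60%. Libraries of the LY+FGF4 group also resembled each other least, with a median r of 0.751 between libraries across genes, against 0.802 in FGF4, 0.852 in LY and 0.892 in DMSO. Whether the lower gene number came from the treatment or from the libraries cannot be told apart.

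**Figure D1:**
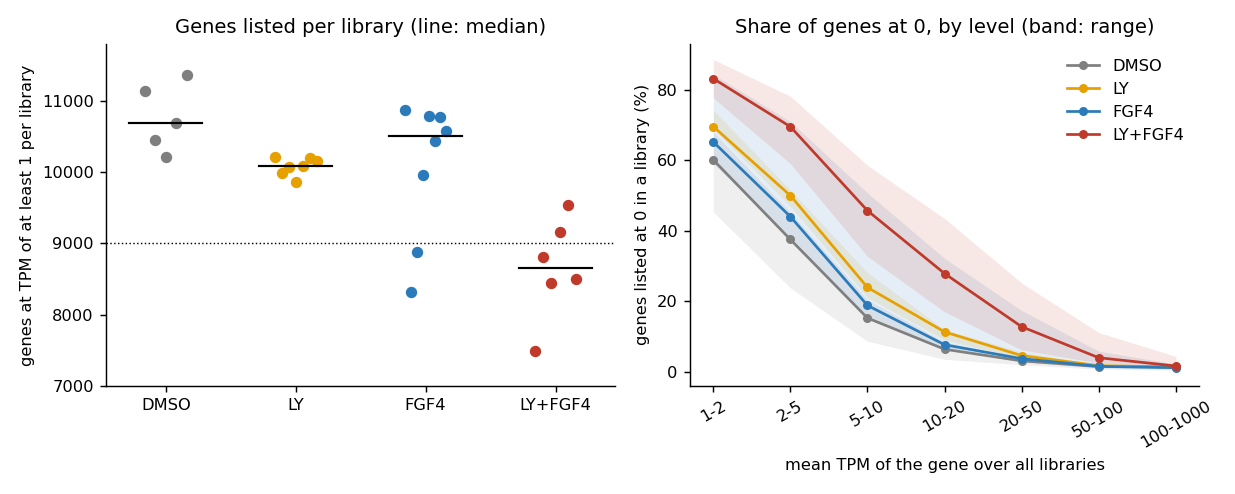
Left, the number of genes at a TPM of at least 1 in each library (points) by group, with the median as a line and 9000 genes as a dotted line; the vertical axis does not start at 0. Right, the percent of genes listed at 0 in a library against the mean level of the gene, as the median (line) and range (band) of each group. The LY+FGF4 line lies above the other groups at each level, though by little at 100-1000 TPM (1.60%, against 1.12% to 1.37%).

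Each gene was tested with limma on log2(TPM + 1), so a fold change on this scale understates the change of genes with low values. Of 12034 genes tested, 427 (3.55%) passed an adjusted p of 0.05, of which 87 (0.723%) were higher and 340 (2.83%) lower in LY+FGF4. The median log2 difference of all genes tested was -0.24, and 63.1% of genes had a negative one. With the number of genes per library as a covariate the median was 0.04, and the calls turned to 113 higher (0.939%) and 74 lower (0.615%), so the predominance of falls was not kept under this account. Of the 87 rises 30 and of the 340 falls 56 were called with the covariate too, so most of its 113 higher calls were other genes. Such a covariate can also take away part of a treatment effect, because the number differs between the groups.

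Gene number was accounted for in 4 ways. They were the covariate, a block for libraries under 9000 genes, a pseudocount of 10 in place of 1, and quantile normalization. Of the 427 genes, 73 passed with the same direction in all 4, of which 28 (0.233% of genes tested) were higher and 45 (0.374%) lower. Of all genes tested, 59 (0.49%) had every LY+FGF4 library below every FGF4 library and 18 (0.15%) had every one above, of which 20 and 12 were among the 73. Within the libraries under 9000 genes and within those above, 418 of the 427 kept their sign and so did all 73. The 427 had been chosen by their difference in these same libraries, and the block for this class had helped to choose the 73. Such agreement was largely set by that choice and is no independent support. Of the 73, 63 passed in each of the 14 fits that left out 1 library, against 190 of all 427. The 295 genes that were lower but not among the 73 had a median level of 32.1 TPM in FGF4, and 48.8% of their LY+FGF4 values were 0. The genes named below belong to the 73 unless it is said that they do not.

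The number of calls also depended on how the spread was estimated. The 26 libraries share 1 spread per gene, and DMSO and LY libraries vary less (median SD of a gene 0.569 and 0.777 on the log2 scale) than those of FGF4 (0.992) and LY+FGF4 (1.207). With the 14 libraries alone, 80 of 10385 genes passed, 18 higher (0.173%) and 62 lower (0.597%), all of them among the 427. They held 47 of the 73 genes, 12 higher and 35 lower. A gene of the 73 that did not pass with the 14 libraries alone is marked as such below.

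**Figure D2:**
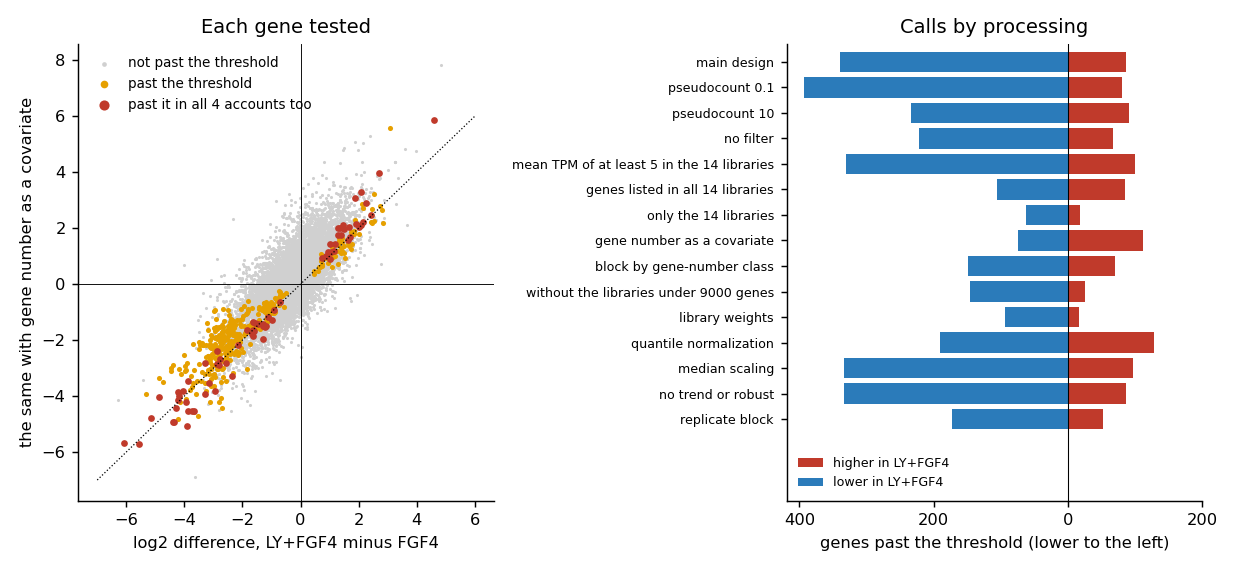
Left, the log2 difference of each of the 12034 genes (LY+FGF4 minus FGF4, horizontal) against the same with gene number as a covariate (vertical); red points are the 73 genes that passed in all 4 accounts, orange points other genes past the threshold, and the dotted line marks equal values. Right, genes past the threshold that were higher (red, to the right) or lower (blue, to the left) under each processing, where the main design gave 87 and 340 and gene number as a covariate 113 and 74.

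The promoters of 2 genes with a clear fall are printed because both hold the composite site that ATF4 binds as a partner of CEBP factors. Its letters are TGATGNAA on either strand. The 250 bases before the start site, from RefSeq on GRCm38.p6, are given along the strand of the gene, with the match in capitals, which here reads as the reverse complement. The Chac1 sequence is chr2:119350992-119351241 on the plus strand and the Nupr1 sequence chr7:126625471-126625720 on the minus strand.
Chac1: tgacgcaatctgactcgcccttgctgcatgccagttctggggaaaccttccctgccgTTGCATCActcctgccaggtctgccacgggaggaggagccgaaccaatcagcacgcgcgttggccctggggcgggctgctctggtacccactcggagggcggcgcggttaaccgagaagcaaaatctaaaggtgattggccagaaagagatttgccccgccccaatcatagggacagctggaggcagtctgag
Nupr1: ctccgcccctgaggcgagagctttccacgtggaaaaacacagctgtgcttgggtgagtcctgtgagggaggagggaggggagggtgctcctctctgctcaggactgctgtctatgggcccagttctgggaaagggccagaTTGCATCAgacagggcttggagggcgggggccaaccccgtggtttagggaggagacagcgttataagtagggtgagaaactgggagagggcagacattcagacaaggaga

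The same site in some of the other genes that were lower is shown with 10 bases on each side, to let the sites be compared. Each is given along the strand on which the motif reads TGATGNAA. The windows lie at chr2:152344029-152344056 (plus) for Trib3, chr14:55540153-55540180 (minus) for Pck2 and chr4:129189896-129189923 (plus) for Yars. Gars (chr6:55037961-55037988, minus), Tars (chr15:11399656-11399683, plus), Iars (chr13:49682127-49682154, minus) and Herpud1 (chr8:94386307-94386334, minus) passed the test but not all 4 accounts.
Trib3: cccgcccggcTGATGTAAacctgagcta
Pck2: tgtaagatacTGATGTAActttgaaggc
Yars: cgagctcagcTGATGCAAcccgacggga
Gars: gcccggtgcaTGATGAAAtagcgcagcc
Tars: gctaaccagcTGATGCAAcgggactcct
Iars: cgtctggaggTGATGCAAtactgacagt
Herpud1: gggtgcgggcTGATGCAAcccgccgtgg

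Windows of 300 bases (250 before to 50 after the start) were searched for this site in all genes that RefSeq's table lists. It was found in 1219 of 27025 symbols (4.51%) and in 222 of the 9090 tested genes with a window (2.44%). Of the 340 genes that were lower, 285 had a window and 22 of these held it (7.72%), and of the 45 that were lower in all 4 accounts 38 had a window and 8 held it (21.1%), among them Aars, Anp32b, Chac1, Hax1, Nupr1, Pck2, Trib3 and Yars. The sites of Aars, Anp32b and Hax1 are not printed above, nor are those of the list members Pycr1, Slc7a7 and Srgn. Gm15446, Ilvbl, Nagpa, Polr2m, Rbm41, Trafd1 and Yod1, which are in none of the lists, also held the site and are not printed. Of the 87 that were higher, 3 of 73 held the site (4.11%). The sterol response element, searched as TCACNCCAC, was in 1.40% of the genes that were lower, 4.11% of those that were higher (3 of 73) and 1.38% of those tested. The FOXO motif GTAAACA was in 2.46%, 6.85% (5 of 73) and 2.89%, in the same order. The palindromic CLEAR box of lysosomal genes was in 1.4% of the lower genes, 0 of 73 higher genes and 0.847% of those tested. A match is only a match of letters and not a bound site.

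ATF4 raises amino acid supply, and with CHOP and other partners it switches on effectors that damp growth and redox balance. Of 21 tested ATF4 and stress-response effectors 8 fell and none rose, against 2.83% of all genes lower, and the median difference of the list was -1.097 on the log2 scale, against -0.24 for all genes. With gene number as a covariate 4 fell, the list median was -0.41 and that of all genes 0.04. The mean log2(TPM + 1) of the list was between 4.51 and 5.64 in the FGF4 libraries and between 2.996 and 3.61 in the LY+FGF4 libraries, so the groups did not overlap. The 4 that held in all accounts were Nupr1, Chac1, Trib3 and Ddit4.

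Nupr1, a small chromatin-associated stress protein, was at 91.2 to 290.3 TPM (median 177) with FGF4 and at 0 to 23.7 TPM (median 0) with LY+FGF4, listed at 0 in 4 of 6. Every FGF4 library was above every LY+FGF4 library (log2 difference -6.08, SE 0.79, adjusted p = 3.72e-05, and adjusted p = 0.000619 with the 14 libraries alone). Chac1 was at 14.8 to 97.8 TPM (median 42.3) with FGF4, and at 0 in all LY+FGF4 libraries, so no fold is given (adjusted p = 3.96e-07, and 0.000106 with the 14 libraries alone). Trib3, a pseudokinase that binds AKT and ATF4, was at 13.8 to 118 TPM (median 53.4) with FGF4 and listed at 0 in 5 of 6 LY+FGF4 libraries, where replicate 3 alone had 17.7 TPM (-4.86, SE 0.73, adjusted p = 0.000287). That library overlapped the lowest FGF4 library. Ddit4, which restrains mTORC1, was at 27.9 to 345 TPM (median 77.8) with FGF4 and 0 to 43.8 TPM (median 5.75) with LY+FGF4, and the groups overlapped (-3.92, SE 0.73, adjusted p = 0.0028). On GRCm38 these protein-coding genes span chr7:126623249-126630861 (Nupr1), chr2:119351229-119354381 (Chac1), chr2:152337422-152344032 (Trib3) and chr10:59949669-59951834 (Ddit4), and TPM is counted over the exons of a gene.

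The transcript of Atf4 itself, whose protein is set mainly by translation, was at 49 to 196 TPM (median 112) with FGF4 and 24.7 to 157 TPM (median 51.4) with LY+FGF4, and did not pass (-0.91, adjusted p = 0.123). Ddit3, which encodes CHOP, was listed at 0 in 5 of 6 LY+FGF4 libraries and had a median of only 1.74 TPM with FGF4 (adjusted p = 0.377). The other members of the list that fell, Atf5, Stc2, Herpud1 and Adm2, did not hold in all 4 accounts. Atf5 passed in all 14 fits that left out 1 library. Herpud1 was lost without LY+FGF4 replicate 2 or 5 (adjusted p = 0.059 and 0.0554), Stc2 without FGF4 replicates 1, 5, 7 or 8 or LY+FGF4 replicates 2, 3, 5, 7 or 8 (0.0502 to 0.0735), and Adm2 without any library but FGF4 replicates 1 and 3 (0.0522 to 0.0846). Without LY+FGF4 replicate 2 or 5 the list had 5 members that fell.

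**Figure D3:**
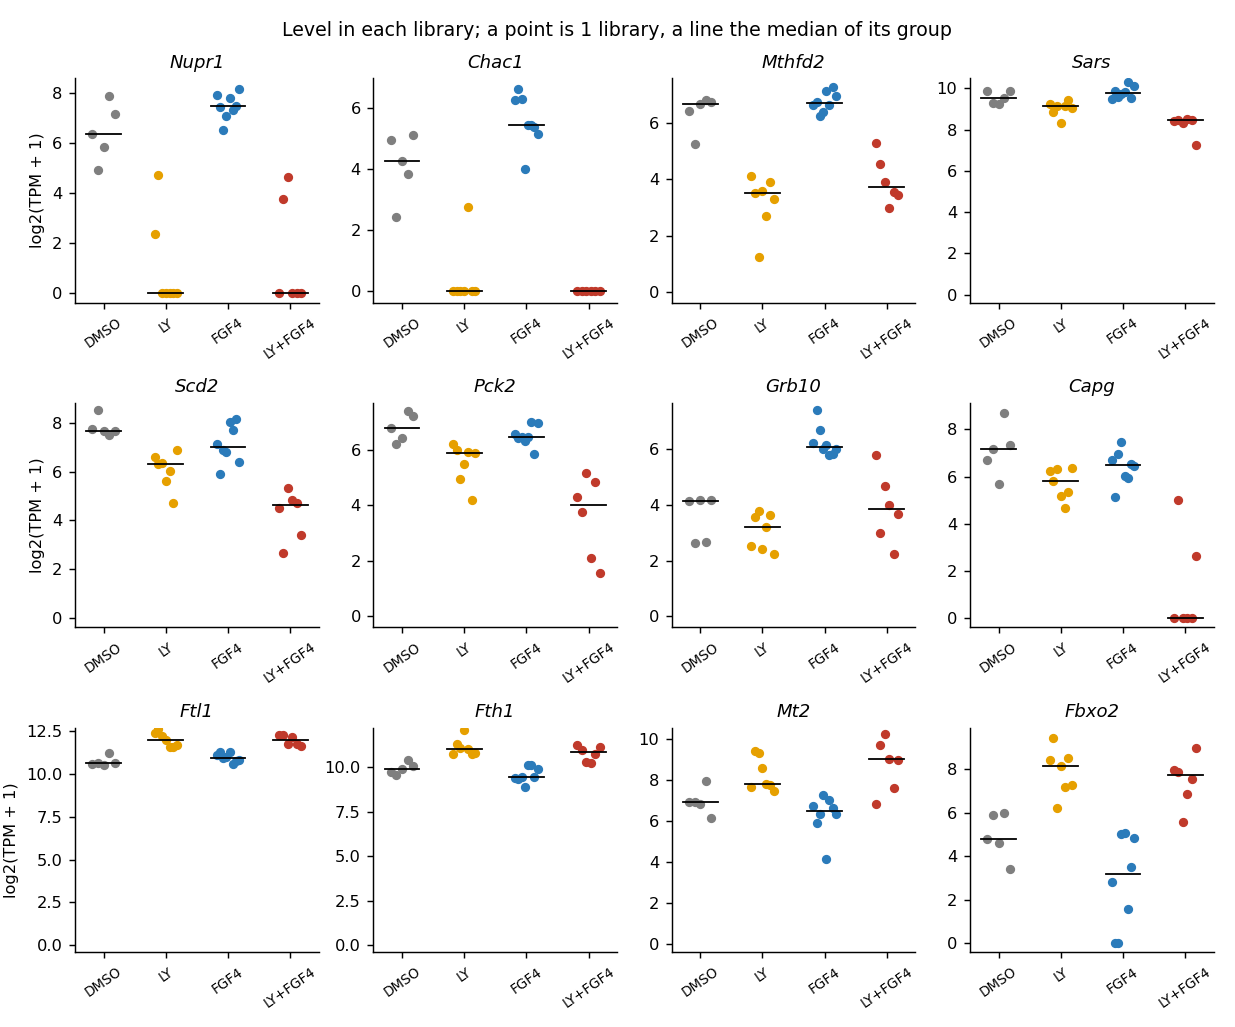
log2(TPM + 1) of 12 genes in each library (points), by group, with the group median as a line. For Nupr1, Chac1, Mthfd2, Sars, Scd2, Pck2, Grb10 and Capg every LY+FGF4 library lies below every FGF4 library, and for Ftl1, Fth1 and Fbxo2 above; Mt2 overlaps.

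Aminoacyl-tRNA synthetases load each amino acid onto its tRNA for translation. Of 23 cytosolic ones tested 10 fell and none rose, against 2.83% of all genes lower. In all 4 accounts 5 of them fell (Sars, Nars, Kars, Yars and Aars, for serine, asparagine, lysine, tyrosine and alanine), against 0.374% of all genes. The list median was -0.88, and -0.84 with gene number as a covariate. These genes are highly expressed, and the mean of the list was 7.81 to 8.12 in FGF4 and 6.55 to 7.46 in LY+FGF4 libraries, without overlap. Sars was at 713 to 1279.7 TPM (median 869.9) with FGF4 and 151 to 360.2 TPM (median 348) with LY+FGF4 (-1.56, SE 0.20, adjusted p = 3.72e-05). Nars was at 866 to 1928 TPM (median 1123) with FGF4 and 227 to 741 TPM (median 566) with LY+FGF4 (-1.31, adjusted p = 0.00475). Neither gene's groups overlapped, and the fall of Sars was 2.89-fold in mean TPM.

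Yars was at 442 to 795 TPM (median 628) and 88.6 to 503 TPM (median 237) in the same order (-1.46, adjusted p = 0.00319), and Aars at 202 to 395 TPM (median 261) and 39.2 to 289.8 TPM (median 79.5) (-1.64, adjusted p = 0.00555). Both overlapped, Aars because LY+FGF4 replicate 2 had 289.8 TPM where the other 5 had at most 94.6. Aars encloses Exosc6 on the same strand and Yars overlaps C77080, so their reads may be shared. Kars (-1.22) lost its call without LY+FGF4 replicate 8 (adjusted p = 0.051) and did not pass with the 14 libraries alone (adjusted p = 0.0957). Cars, Gars, Iars, Tars and Wars fell in the fit of all libraries but not in all accounts, and Iars was lost without LY+FGF4 replicate 2 or 8 (adjusted p = 0.0741 and 0.0709) and Wars without LY+FGF4 replicate 5 (0.0582). Gars was at 97.8 to 249.96 TPM (median 146) and 46.7 to 80.7 TPM (median 61.8), without overlap (adjusted p = 0.00441, and 0.111 with gene number as a covariate). Of 17 mitochondrial synthetases 1 fell (5.88%, against 2.83% of all genes). It was Ears2 (-2.22, adjusted p = 0.0391), which was not among the 73. Ears2 was lost in 8 of 14 fits without 1 library (adjusted p 0.0528 to 0.0998, namely without FGF4 replicates 3, 4, 5, 6, 7 or 8 or LY+FGF4 replicates 2 or 6).

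The enzymes that make serine, proline, asparagine and one-carbon units gave 5 falls and 1 rise out of 26 tested, against 2.83% of all genes lower and 0.723% higher. The list median was -0.56, and -0.05 with the covariate, beside -0.24 and 0.04 for all genes. Mthfd2, an enzyme of mitochondrial folate metabolism, was at 75.8 to 156 TPM (median 104) with FGF4 and 6.93 to 38.4 TPM (median 12.3) with LY+FGF4. It was 6.51 times lower and without overlap (-2.82, SE 0.42, adjusted p = 0.000264, and 0.00196 with the 14 libraries alone). Psat1, the transaminase of serine synthesis, was at 357 to 939.6 TPM (median 539.8) and 90.5 to 375 TPM (median 183) (-1.63, SE 0.27, adjusted p = 0.000658), and the highest LY+FGF4 library just overlapped the lowest FGF4 library. Mthfd1l, Aldh18a1 and Pycr1 also fell and Gldc rose, but these did not hold in all accounts. Aldh18a1, of proline synthesis, was at 217 to 874 TPM (median 333) and 0 to 185 TPM (median 48.4) without overlap, yet its adjusted p went from 0.018 to 0.0991 with the covariate, and to 0.0501 and 0.0509 without LY+FGF4 replicate 3 and 8. Pycr1 was lost in 12 of the 14 fits without 1 library (adjusted p 0.0537 to 0.0797), all but those without LY+FGF4 replicate 5 or 7, and Gldc without FGF4 replicate 7 (0.0533) or LY+FGF4 replicate 2 (0.0606). The list had 3 falls without LY+FGF4 replicate 8 and 9 without LY+FGF4 replicate 7.

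Outside the lists, Pck2, the mitochondrial enzyme that turns oxaloacetate into phosphoenolpyruvate and feeds serine synthesis, was at 56.5 to 126 TPM (median 86.9) with FGF4 and 1.97 to 34.5 TPM (median 15.4) with LY+FGF4 (-2.89, SE 0.45, adjusted p = 0.000393). All 6 LY+FGF4 libraries were below all 8 FGF4 libraries. Aldh1b1, a mitochondrial aldehyde dehydrogenase, was at 0 to 108 TPM (median 10.6) with FGF4 and listed at 0 in all 6 LY+FGF4 libraries (adjusted p = 0.00555), but did not pass with the 14 libraries alone (adjusted p = 0.0582). Of 22 amino acid transporters 6 fell, against 2.83% of all genes, and only Slc38a2, a carrier of small neutral amino acids, held in all accounts. Its level was low, at 3.61 to 22.9 TPM (median 8.56) with FGF4 and 0 in 5 of 6 LY+FGF4 libraries (-2.76, adjusted p = 0.00394). The other 5 were Slc3a2, Slc7a1, Slc7a6, Slc7a7 and Slc38a7, with 2 to 6 falls in the list when 1 library was left out, 2 without LY+FGF4 replicate 8 and 3 without FGF4 replicate 1, 5, 6 or 8 or LY+FGF4 replicate 2. Slc3a2, the heavy chain of the large amino acid exchangers, had all LY+FGF4 libraries (137.6 to 240.6 TPM) below all FGF4 libraries (264 to 460.0 TPM), with an adjusted p of 0.0416 that became 0.389 with the covariate. Its call was lost without FGF4 replicates 1, 4, 5, 6, 7 or 8 or LY+FGF4 replicates 2, 6 or 8 (adjusted p 0.0521 to 0.0989).

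Of 29 cholesterol genes 6 fell and none rose, against 2.83% of all genes lower, and their list median of -1.43 (-1.102 with the covariate) was the lowest of the 30 lists. Insig1, the sterol-regulated retention protein of SREBP, was the member that held in all accounts, at 78.4 to 292 TPM (median 147) with FGF4 and 18 to 65.4 TPM (median 33.8) with LY+FGF4, without overlap (-2.15, SE 0.37, adjusted p = 0.00114). The squalene synthase gene Fdft1, Fdps, Pmvk and Acat2 were among those that fell without holding in all accounts. Fdft1 was at 18.7 to 270.0 TPM (median 53.8) and 0 to 32.9 TPM (median 6.91) (adjusted p = 0.00728, and 0.16 with the covariate). Pmvk was lost without LY+FGF4 replicate 2 (adjusted p = 0.0518), and Acat2 without FGF4 replicates 1, 4, 5, 7 or 8 or LY+FGF4 replicates 2, 3 or 5 (0.0513 to 0.103). The list mean was 4.90 to 6.57 in FGF4 and 4.01 to 5.08 in LY+FGF4 libraries, which overlapped.

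Of 25 fatty acid genes 3 fell and 1 rose, against 2.83% and 0.723% of all genes, with a list median of -0.27 beside -0.24 for all genes, and 1 of them held in all accounts. Scd2, a desaturase that puts a double bond into saturated fatty acids, was at 59 to 286 TPM (median 128) with FGF4 and 5.35 to 39.7 TPM (median 23.7) with LY+FGF4, 7.35 times lower and without overlap (-2.89, SE 0.41, adjusted p = 0.00012). Its paralog Scd1 was at 61.1 to 223 TPM (median 119) and 7.77 to 93.5 TPM (median 26.5) (-2.29, adjusted p = 0.00883, and 0.0284 with the 14 libraries alone) but not past the threshold with the covariate (0.16). Me1, which makes NADPH for lipid synthesis, fell and Hacd3 rose, neither of them in all accounts. The call of Hacd3 was lost without FGF4 replicates 1, 4, 5, 6 or 7 or LY+FGF4 replicates 2, 3, 5 or 6 (adjusted p 0.0595 to 0.0825). Scd1 and Scd2 are alike in sequence, so reads may have been split between them. Of other lipid genes outside the lists, Smpdl3b, a sphingomyelinase-like membrane enzyme, was at 4.72 to 77.4 TPM (median 19) and 0 to 4.15 TPM (median 0) (-3.94, adjusted p = 0.000287) without overlap.

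**Figure D4:**
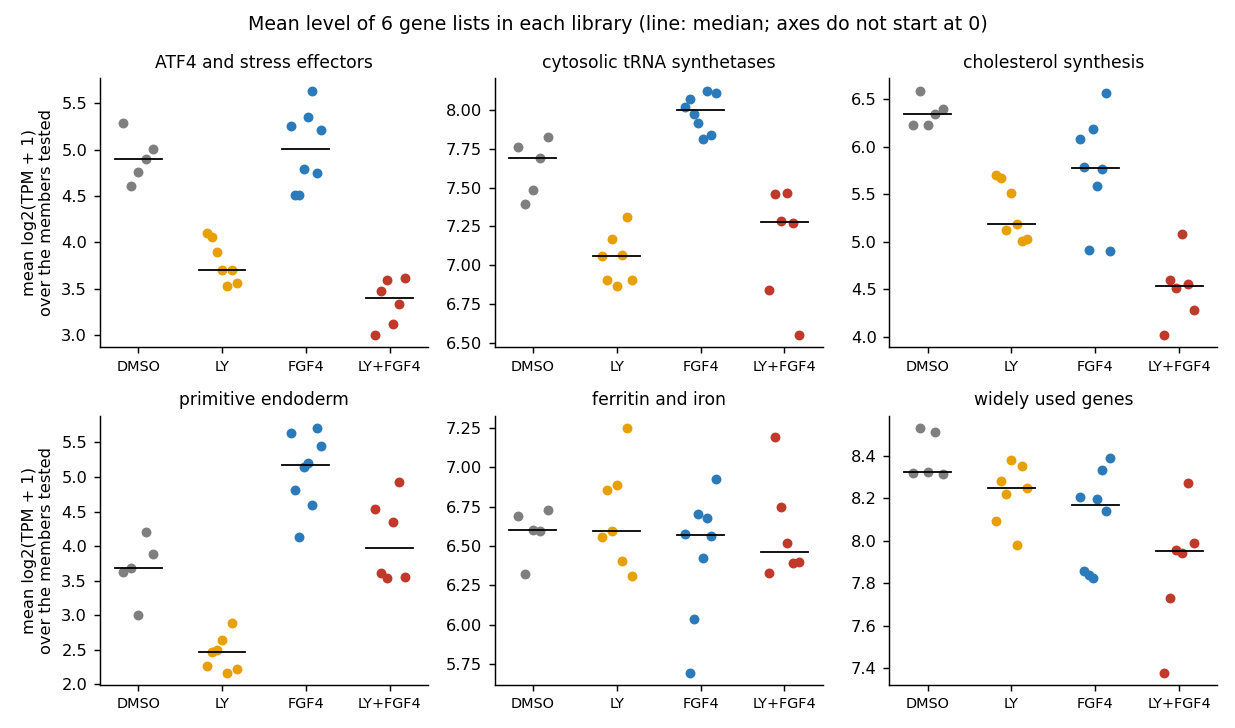
Mean log2(TPM + 1) over the tested members of 6 gene lists in each library (points), by group, with the group median as a line; axes do not start at 0. The FGF4 and LY+FGF4 points of ATF4 effectors and of cytosolic tRNA synthetases do not overlap, those of the other 4 lists do, and the median over libraries of the widely used genes is 8.17 in FGF4 and 7.95 in LY+FGF4.

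The list of widely used genes, kept as a reference, gave 1 rise (Rplp0, 6.67%) and 2 falls (Hprt and Tubb5, 13.3%) out of 15. Of all genes 0.723% rose and 2.83% fell. None of the 3 held in all accounts, and the list had a median difference of 0.11. Its mean level was 7.82 to 8.39 in FGF4 and 7.38 to 8.28 in LY+FGF4 libraries, lower in LY+FGF4 and so opposite in sign to the median difference. Rplp0 was lost without LY+FGF4 replicate 8 (adjusted p = 0.0502), and Hprt without FGF4 replicates 1, 3, 6 or 8 or LY+FGF4 replicates 2 or 6 (0.0512 to 0.0707).

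Components of the PI3K, AKT and mTOR pathway gave 1 call out of 29 (3.45%), against 0.723% of all genes higher. It was a rise of Akt1, the kinase that PI3K activates. Akt1 was at 32.5 to 141 TPM (median 61.6) with FGF4 and 113 to 335 TPM (median 163) with LY+FGF4, with overlap (1.27, SE 0.30, adjusted p = 0.0161), and was past the threshold neither with the covariate (0.339) nor with the 14 libraries alone (0.11). Pik3ca, a catalytic subunit of PI3K, was low in both groups, with medians of 0.71 and 3.06 TPM (0.51, adjusted p = 0.722). Irs2, an insulin receptor substrate that FOXO factors switch on, was listed at 0 in every FGF4 library and at 0.61 TPM in 1 LY+FGF4 library, and was not tested. Foxo3 was at 19 to 151 TPM (median 77.6) and 49.7 to 237 TPM (median 117) (0.91, adjusted p = 0.217). Of 23 FOXO factors and targets 1 fell (4.35%, against 2.83% of all genes). It was Txnip, a brake on glucose uptake (-2.23, adjusted p = 0.0217). Txnip was lost without LY+FGF4 replicate 8 (adjusted p = 0.0527) and with the covariate (0.0865).

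Grb10, an imprinted adaptor that binds the insulin receptor and dampens its signal, fell in all accounts. It was at 54.4 to 167 TPM (median 66.4) with FGF4 and 3.71 to 53.7 TPM (median 13.4) with LY+FGF4, the highest of which lay just under the lowest FGF4 library (-2.36, SE 0.48, adjusted p = 0.00555). Medians in DMSO and LY were 16.5 and 8.28 TPM, near the LY+FGF4 median of 13.4. Lin28a, the RNA-binding protein that holds back let-7 microRNAs, was at 10.7 to 74.3 TPM (median 44.7) and 0 to 68.1 TPM (median 1.88) with overlap (-3.29, adjusted p = 0.01), and did not pass with the 14 libraries alone (0.0861).

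Among the 28 genes that rose in all accounts, those of metal storage stood at high levels. Ftl1, the light chain of ferritin, was at 1577 to 2525 TPM (median 2004) with FGF4 and 3210.1 to 5097 TPM (median 4079) with LY+FGF4 (1.01, SE 0.16, adjusted p = 0.000551), and Fth1, the heavy chain, at 482 to 1139 TPM (median 709) and 1208 to 2409 TPM (median 1889) (1.17, SE 0.22, adjusted p = 0.00254). Every LY+FGF4 library was above every FGF4 library for both, about a 2.03-fold and 2.24-fold difference in mean TPM. They were the only 2 of 15 ferritin and iron genes past the threshold (13.3%, against 0.723% of all genes higher). Tfrc, the transferrin receptor that brings iron in, did not pass (1.30, adjusted p = 0.146). Pseudogenes of Ftl1 and Fth1 exist, so part of their reads may be placed there.

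The metallothioneins Mt1 and Mt2, neighbours on chromosome 8, rose together. Mt1 was at 23.5 to 205 TPM (median 82.3) with FGF4 and 158 to 522 TPM (median 317) with LY+FGF4 (2.09, SE 0.38, adjusted p = 0.00228), and Mt2 at 16.6 to 154 TPM (median 88.7) and 112 to 1201 TPM (median 509.7) (2.43, SE 0.48, adjusted p = 0.00422). Both overlapped between the groups and both passed with the 14 libraries alone (adjusted p = 0.0158 and 0.0297). LY+FGF4 libraries reached up to 1201 TPM of Mt2, and FGF4 replicate 5 had the least at 16.6 TPM.

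Fbxo2, which picks glycosylated proteins for ubiquitination, had the largest rise of the 28. It was at 0 to 32.2 TPM (median 8.24) with FGF4 and 46.6 to 507 TPM (median 210.0) with LY+FGF4, without overlap (4.61, SE 0.74, adjusted p = 0.000551). Its mean TPM was 16.1 times higher. Ube2h, a ubiquitin-conjugating enzyme, was at 0 to 21.7 TPM (median 9.13) and 19.4 to 125 TPM (median 49.4) (2.69, adjusted p = 0.0154) and did not pass with the 14 libraries alone (0.111). Mkrn1, a ubiquitin ligase, was at 425 to 885 TPM (median 613) and 1035 to 1621 TPM (median 1232) (1.05, SE 0.14, adjusted p = 8.11e-05), again without overlap.

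Wac, a nuclear adaptor of histone ubiquitination, was at 139 to 402 TPM (median 298) with FGF4 and 810.2 to 1864 TPM (median 964) with LY+FGF4, 3.97 times higher in mean TPM and without overlap (2.03, SE 0.24, adjusted p = 1.96e-05). Ybx3, a cold-shock domain protein that binds mRNA, was at 67.8 to 147 TPM (median 90.9) and 219 to 457 TPM (median 317), without overlap (1.70, SE 0.24, adjusted p = 0.000148). Hdac3, the histone deacetylase of the NCoR complex, was at 122 to 283 TPM (median 201) and 359 to 449 TPM (median 387) (0.96, adjusted p = 0.00104). Gnai2, an inhibitory G protein subunit, was at 33.3 to 225 TPM (median 83.3) and 134 to 556 TPM (median 440.2) with overlap (2.17, adjusted p = 0.00132), and Crip2, a LIM domain protein, at 220.4 to 566 TPM (median 305) and 603 to 2026 TPM (median 961) without (1.63, adjusted p = 0.000133). These 5 passed with the 14 libraries alone (adjusted p 0.00192 to 0.0274).

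Zyx, a focal adhesion protein, Sfn, the epithelial 14-3-3 protein, and Macroh2a1, a repressive histone variant, rose in all accounts but did not pass with the 14 libraries alone (adjusted p 0.0949, 0.0794 and 0.0673). Sfn was at 70.6 to 503 TPM (median 209) with FGF4 and 309 to 976 TPM (median 554) with LY+FGF4, while its median in DMSO was 708 TPM. Macroh2a1 was at 193 to 358 TPM (median 283) and 358 to 724 TPM (median 505), with a DMSO median of 856 TPM. For both, the LY+FGF4 median lay between those of FGF4 and DMSO. Slc19a2, the thiamine carrier, rose from a low level of 0 to 19.4 TPM (median 5.49) to 11.4 to 49.2 TPM (median 26.7) (2.24, adjusted p = 0.0203, and 0.136 with the 14 libraries alone). Mgat4b (1.90, adjusted p = 0.00492), Ttc13 (2.10, 0.0316) and Zfp322a (1.87, 0.0438) also rose in all accounts. None of these passed with the 14 libraries alone (adjusted p 0.0822, 0.178 and 0.153). Leaving out 1 library ended the call of Ttc13 in 3 and that of Zfp322a in 10 of 14 fits.

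Of the remaining falls, Capg, which caps actin filaments, was among the largest. It was at 34.6 to 177 TPM (median 89) with FGF4 and listed at 0 in 4 of 6 LY+FGF4 libraries, with 0 to 31.3 TPM (median 0), and the groups did not overlap (-5.13, SE 0.63, adjusted p = 2.38e-05). Mov10l1, a helicase of the piRNA pathway, was at 24.3 to 189.7 TPM (median 47.2) and 0 to 11.9 TPM (median 1.57) (-4.29, adjusted p = 0.00146), also without overlap. Ift81, of cilium transport, and Gnpda2, of amino sugar metabolism, were listed at 0 in all 6 LY+FGF4 libraries, but each also in 1 FGF4 library (adjusted p = 0.00805 and 0.000738). Pigh (-4.23, adjusted p = 0.000295) and Tbc1d19 (-4.21, 0.000577) were listed at 0 in 4 of 6 LY+FGF4 libraries, and the groups overlapped for both. Hax1, a mitochondrial survival factor, was at 123 to 385 TPM (median 228) and 45.1 to 106 TPM (median 75.1) (-1.62, adjusted p = 0.000551), and Dnajc11, of the mitochondrial cristae complex, at 485 to 815 TPM (median 672) and 73.6 to 457 TPM (median 233) (-1.60, adjusted p = 0.000551), both without overlap. Gnpda2 overlaps Guf1, whose reads may be counted with it, since no source used here gives the strandedness of the counting.

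Primitive endoderm transcription factors and surface genes gave 2 rises (9.52%) and 4 falls (19.0%) out of 21, against 0.723% and 2.83% of all genes. None of them held in all accounts. No fall or rise was left with the covariate, with the 14 libraries alone or without the libraries under 9000 genes. The 4 that fell were Foxq1, Cubn, Srgn and Runx1, and the 2 that rose Fgfr1 and Cd9. Fgfr1, one of the receptors of FGF4, was at 20.1 to 128 TPM (median 63.8) with FGF4 and 124 to 258 TPM (median 147) with LY+FGF4, with overlap (1.43, SE 0.34, adjusted p = 0.017, and 0.0541 with the covariate). Cubn, an endocytic receptor of visceral endoderm, was at 1.07 to 13.6 TPM (median 5.11) and 0 to 2.49 TPM (median 0) (adjusted p = 0.017, and 0.314 with the covariate). Foxq1 was lost without LY+FGF4 replicate 8 (adjusted p = 0.0509), Srgn without FGF4 replicate 7 (0.0519) or LY+FGF4 replicate 2 (0.0512), and Cd9 without any of 9 libraries (0.0547 to 0.116, namely FGF4 replicates 1, 2, 3, 4, 5 and 7 and LY+FGF4 replicates 3, 5 and 8). The list mean was 4.13 to 5.71 in FGF4 and 3.54 to 4.92 in LY+FGF4 libraries, which overlapped.

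Gata4 and Sox17, factors that define primitive endoderm, and its receptor Pdgfra spanned a wider fold range over the LY+FGF4 libraries than over the FGF4 libraries. Gata4 was at 125 TPM in replicate 2 of LY+FGF4, at 3.77 in replicate 3, 87.5 in replicate 5, 116 in replicate 6, 92.4 in replicate 7 and 1.97 in replicate 8, while FGF4 libraries had 34.1 to 216 TPM (-1.72, adjusted p = 0.212). Sox17 was at 486, 489, 115, 766, 768 and 332 TPM in the same order of replicates, against 431 to 909.9 with FGF4 (-0.63, adjusted p = 0.67). Pdgfra was at 274, 153, 66.1, 311, 721 and 169.5 TPM, against 216 to 507 (-0.59, adjusted p = 0.62). Replicates 6 and 7, the only 2 of LY+FGF4 above 9000 genes, and replicate 2, which is under it, were in the FGF4 range for all 3 genes or above it, and Gata6 was at 199 to 456 TPM (median 311) with FGF4 and 146 to 603 TPM (median 393) with LY+FGF4 (0.10, adjusted p = 0.894, with a sign that turned without LY+FGF4 replicate 2, 6 or 7).

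Of 24 basement membrane and matrix genes 3 fell (12.5%), against 2.83% of all genes, none of them in all accounts. Only 1 fell when FGF4 replicate 7 or any of LY+FGF4 replicates 3, 5 and 8 was left out. Lama1, a laminin chain, was at 7.27, 0, 0, 15.8, 29.6 and 0.35 TPM in the LY+FGF4 group (replicates 2, 3, 5, 6, 7 and 8), against 3.29 to 259 TPM (median 119.8) with FGF4 (-3.97, adjusted p = 0.026, and 0.269 with the covariate). FGF4 replicates 3 and 6, at 11.4 and 3.29 TPM, overlapped with them. Leaving out FGF4 replicate 7, or any of LY+FGF4 replicates 3, 5 and 8, also ended the call of Lama1 (adjusted p 0.0546 to 0.0608). Its partner Lamb1 was at 123 to 2389 TPM (median 1533) with FGF4 and 4.77 to 762 TPM (median 319) with LY+FGF4 (-3.15, adjusted p = 0.0458), lost without FGF4 replicates 1, 2, 3, 4, 5, 7 or 8 or LY+FGF4 replicates 3, 5 or 8 (0.0543 to 0.109). Hspg2, the perlecan gene, was at 0 to 59.7 TPM (median 21.4) and 0 to 2.98 TPM (median 0) (-3.17, adjusted p = 0.0115, and 0.0763 with the covariate).

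Epiblast genes gave no call out of 15 in limma (1 at an unadjusted p under 0.05), with a list median of -0.16. Nanog, the factor of naive epiblast, was at 0 to 176 TPM (median 8.48) with FGF4, where replicate 6 held the highest value and the other 7 at most 17.4, and at 0, 11.7, 64.6, 0, 2.5 and 104.8 TPM in the LY+FGF4 group (replicates 2, 3, 5, 6, 7 and 8) (-0.16, adjusted p = 0.952). Sox2 was at 0 to 56.5 TPM (median 19.3) and 5.62 to 109.8 TPM (median 20.5) (1.09, adjusted p = 0.46). Of 17 naive pluripotency factors 1 fell (5.88%, against 2.83% of all genes). It was Pou5f1, at 949.8 to 1495 TPM (median 1089) and 538 to 1034 TPM (median 849.9), not in all accounts (-0.50, adjusted p = 0.0456). Pou5f1 was lost without FGF4 replicates 1, 3, 4, 5, 6 or 7 or LY+FGF4 replicates 2, 7 or 8 (0.0503 to 0.124). FGF/ERK targets gave no call out of 19 (4 at an unadjusted p under 0.05), though 1 rose with the covariate and up to 1 rose and 2 fell without 1 library. Dusp4, the ERK-induced phosphatase, was at 113 to 540.0 TPM (median 362) and 67 to 352 TPM (median 252) (-0.65, adjusted p = 0.635), and Etv5 at 41 to 518 TPM (median 119) and 141 to 661 TPM (median 288) (1.10, adjusted p = 0.296). A difference in Dusp4 or Etv5 was not detected, which does not show that levels were equal.

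Markers of outer cells, which immunosurgery should remove, were present in both groups. Of 19 trophectoderm genes Sfn rose, as given above, and Ly6a fell (5.26% each, against 0.723% and 2.83% of all genes). The fall of Ly6a (-3.80, adjusted p = 0.0367) did not hold in all accounts. It was lost without FGF4 replicates 4, 5, 7 or 8 or LY+FGF4 replicates 3, 5 or 8 (0.0523 to 0.0888). The list mean was 3.76 to 5.66 in FGF4 and 3.05 to 5.18 in LY+FGF4 libraries. Cdx2, the defining factor, was at 0 in 2 of 8 FGF4 and 4 of 6 LY+FGF4 libraries, and reached 281.7 TPM in FGF4 replicate 6 and 71.7 and 67.4 TPM in LY+FGF4 replicates 3 and 5. FGF4 replicate 6 stood apart from its group in Gata4 (34.1 TPM), Lamb1 (123 TPM), Nanog and Cdx2, yet its mean of ATF4 effectors, 5.64, was the highest of the 14. Without it 402 genes passed, and 71 of the 73. Oocyte transcripts gave no call out of 7 tested (1 at an unadjusted p under 0.05), with a list mean of 1.90 to 3.44 in FGF4 and 1.40 to 2.94 in LY+FGF4 libraries. The part of these markers in the results was not tested.

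Other lists had few or no calls. Of 20 glycolysis genes Slc2a1 and Pkm rose (10.0%, against 0.723% of all genes), not in all accounts. Slc2a1 was lost without FGF4 replicates 3, 5, 6 or 7 or LY+FGF4 replicates 2, 3, 6 or 8 (adjusted p 0.0526 to 0.079), and Pkm without FGF4 replicates 4 or 7 or LY+FGF4 replicates 2 or 3 (0.0521 to 0.0791). Ribosome biogenesis gave 1 fall of 31 (Rrp9, 3.23%), autophagy 1 of 29 (Uvrag, 3.45%) and immediate early and heat shock genes 1 of 19 (Hspb1, 5.26%). Of all genes 2.83% fell. Rrp9 was lost without FGF4 replicates 3, 4, 5 or 8 or LY+FGF4 replicates 2 or 8 (adjusted p 0.0501 to 0.0853), Uvrag without FGF4 replicates 5, 6, 7 or 8 or LY+FGF4 replicates 2, 3, 5 or 8 (0.0512 to 0.0736), and Hspb1 without FGF4 replicates 5, 7 or 8 or LY+FGF4 replicates 2, 3 or 8 (0.0501 to 0.054). Lysosome genes (29), p53 targets (23), pentose phosphate and antioxidant genes (25), chaperones of the endoplasmic reticulum and the unfolded protein response (22), S phase (28) and G2/M genes (26), nuclear-encoded oxidative phosphorylation genes (28) and apoptosis regulators (20) gave no call in limma. At an unadjusted p under 0.05 these lists held 8, 0, 2, 4, 7, 3, 8 and 0 genes, in the order given. Leaving out 1 library gave up to 2 rises and 1 fall in the lysosome list, up to 2 falls in oxidative phosphorylation, 1 fall in S phase, 1 rise in G2/M, and up to 1 rise and 1 fall in the chaperones. With the covariate the chaperones and oxidative phosphorylation had 1 rise each. S phase genes had 23 of 28 differences below 0 and a median of -0.45, and the chaperones 15 of 22 above 0 and a median of 0.15.

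LY was also given without FGF4, and the LY against DMSO comparison uses none of the 14 libraries in its group means, so its values can be set beside these. There 45 genes passed, 9 higher (0.0748%) and 36 lower (0.299%), and 21 of them were among the 427, all with the same sign, which is 46.7% of the LY against DMSO list and 4.92% of the other. Of all genes tested 3.55% were among the 427. Both comparisons use the same spread per gene over all 26 libraries. A gene with a small spread passes more easily in both, so the 2 sets of calls are not independent. The 21 held the ATF4 effectors Nupr1, Chac1 and Trib3, the enzymes Mthfd2, Psat1, Aldh1b1 and Fdps, Tars and Slc3a2, and on the rising side Ftl1, Fth1, Arl6ip1, Rogdi, Mlf2 and Cd9, and 10 of the 21 were among the 73. Fdps, Tars, Slc3a2, Arl6ip1, Rogdi, Mlf2 and Cd9 were not. The 45 became 19 with gene number as a covariate, 134 without the libraries under 9000 genes, 496 with library weights and 28 without trend and robust moderation, and the overlap was not counted in these settings. In the order DMSO, LY, FGF4, LY+FGF4, the median TPM of Nupr1 was 82, 0, 177 and 0, that of Mthfd2 102, 10.6, 104 and 12.3, and that of Ftl1 1577, 4077, 2004 and 4079. Of the 73 genes 58 had the same sign in LY against DMSO, 37 of 45 that fell and 21 of 28 that rose, against 62.1% of all genes tested. The 2 sets of differences had r = 0.332 across all genes tested and 0.671 across the 73, as a description across genes that are not independent. Ddit4 (-0.99, adjusted p = 0.857), Capg (-1.41, 0.566) and Sars (-0.54, 0.406) did not pass without FGF4, and their interaction did not pass either (adjusted p 0.63, 0.265 and 0.388).

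**Figure D5:**
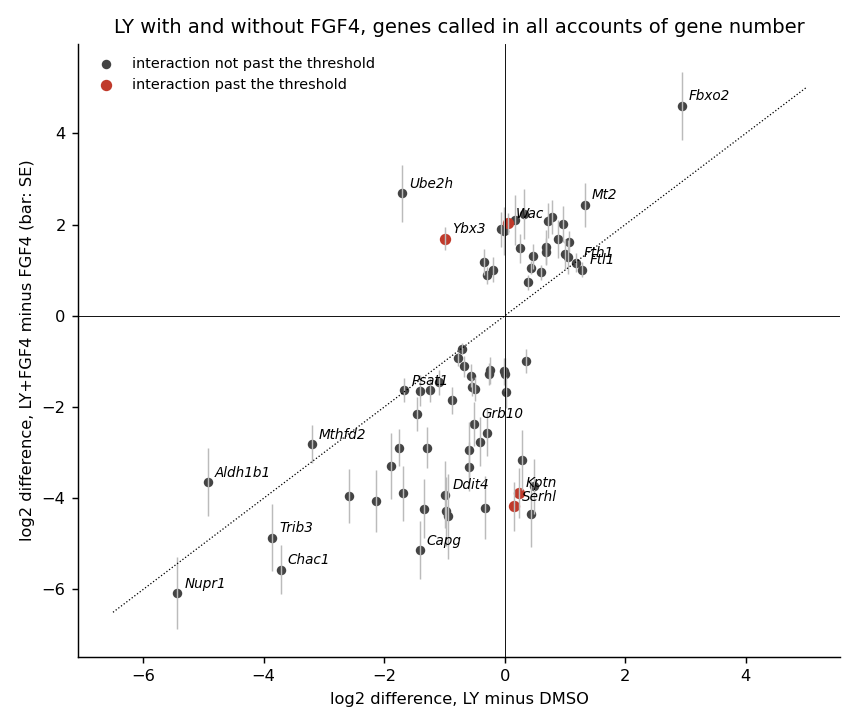
log2 difference of the 73 genes with LY in the presence of FGF4 (vertical, with SE) against that with LY alone (horizontal, LY minus DMSO); the dotted line marks equal values and red points passed the test of the difference. Nupr1, Chac1 and Trib3 lie at the lower left of both axes, and Wac, Ybx3, Serhl and Kptn, in red, differ between the axes.

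Where the LY effect differed with and without FGF4 was tested as an interaction, which 6 genes passed (0.0499%). For Ybx3 (difference of the 2 LY effects 2.68, adjusted p = 0.000455) the medians were 346 and 183 TPM for DMSO and LY, and 90.9 and 317 TPM for FGF4 and LY+FGF4, so LY went with a lower level alone and a higher level on top of FGF4. Wac (1.96, adjusted p = 0.0213) stood at 294, 296 and 298 TPM in the first 3 groups and at 964 in LY+FGF4. Rcc2, a chromosomal passenger protein (3.87, adjusted p = 0.00483), had medians of 313, 58.5, 46.9 and 77.8 TPM, and LY on top of FGF4 did not change it past the threshold (0.88, adjusted p = 0.254). Ybx3 and Rcc2 passed in all 27 other settings and Wac in 24 of 27. Wac was lost without libraries under 9000 genes (adjusted p = 0.0589), without trend and robust moderation (0.0984) and with replicate number as block (0.0726).

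The other 3 interaction genes had low levels and were lower in LY+FGF4 than in the other groups. Serhl, a hydrolase, had medians of 13.1, 20.1, 21.1 and 0 TPM in DMSO, LY, FGF4 and LY+FGF4 (-4.34, adjusted p = 0.0213), and overlaps the far more abundant Rrp7a, whose reads it may share. N4bp2, which is not among the 73, had 12.3, 42.7, 42.6 and 3.62 (-4.55, adjusted p = 0.0278), and Kptn 12, 12.1, 27.8 and 0 (-4.12, adjusted p = 0.0387). These 3 lost the interaction call in 6, 8 and 16 of 26 other settings. Accounts of gene number were among these settings. With pseudocount 10 the adjusted p was 0.364 for Serhl, 0.0602 for N4bp2 and 0.208 for Kptn. With the block by gene-number class it was 0.057, 0.0945 and 0.113 in the same order. N4bp2 and Kptn were also lost with the covariate (0.0616 and 0.0968), and Serhl with quantile normalization (0.0994). N4bp2 was lost without FGF4 replicate 4, 5 or 7 (adjusted p 0.0509 to 0.0566) and Kptn without FGF4 replicates 1, 2, 3, 4, 5 or 7 or LY+FGF4 replicates 2, 5 or 8 (0.0509 to 0.0763).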

How the data were processed

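FLASH-seq libraries of 26 single ICMs were analysed, 5 DMSO, 7 LY, 8 FGF4 and 6 LY+FGF4, grouped by the treatment in the labels. The deposited values are TPM per gene, computed by the authors. Reads were trimmed and de-duplicated, per the labels' protocols, and STAR, RSEM and mm10 are named, per the submitters' processing notes. No source used here gives versions, annotation or strandedness. TPM keeps no count, so the depth is unknown and no counting interval is given. TPM is relative, so a rise of abundant genes lowers the rest. Of 55254 symbols, 53255 matched a GENCODE M21 gene, from which GRCm38 coordinates were taken. No pair of libraries was identical (highest r = 0.918).

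log2(TPM + 1) was fitted with limma 3.58.1 (R 4.3.3), with a mean for each of the 4 groups over all 26 libraries, trend and robust variance moderation, and Benjamini-Hochberg adjustment over all genes tested. A gene was tested if 5 or more libraries reached a TPM of 1. Gene number was compared with a two-sided exact permutation test (scipy 1.17.1). The fit was tested on simulated data. These gave each gene 1 spread for all groups and LY+FGF4 no lower gene number, so the effect of either could not be tested. Genes named are 20 fixed ones, the 10 largest changes in each direction among those that held in all 4 accounts of gene number, up to 4 of each list and the interaction genes. Not all of those chosen from the lists are described. Other genes named were chosen after their values were seen. The comparison, gene lists and motifs were chosen with earlier results of these data known, so no list is independent support. Alternatives were other pseudocounts, filters, normalizations, weights, blocks and libraries left out.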

Additional observations from a re-analysis of the deposited data

Results flagged for a closer look

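Of 218 groups of values tested for an outlying library (109 genes in FGF4 and in LY+FGF4), 18 were flagged because 1 library lay far from the rest, and chance flags about 1 in 20 where values vary. This rate need not hold where all other libraries of a group are at 0. That was so for Ddit3, Hspb1, Serhl, Slc38a2 and Trib3 with LY+FGF4. In FGF4 replicate 6, Gata4 was at 34.07 TPM (the others 98.05 to 216.07) and Lamb1 at 122.65 (663.3 to 2388.69). In FGF4 replicate 2, N4bp2 was at 6.48 TPM (29.67 to 87.39), Sars2 at 11.32 (31.11 to 69.13) and Ttc13 at 0 (8.95 to 36.1). Mt2 was at 16.57 TPM in FGF4 replicate 5 (57.97 to 153.5), and Vars2 at 146.27 in FGF4 replicate 4 (21.17 to 40.04).

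In LY+FGF4 replicate 7, Ddit3 was at 3.36 TPM and Hspb1 at 23.16, both at 0 in the other 5 libraries. In LY+FGF4 replicate 6, Gnai2 was at 133.65 TPM (357.51 to 555.84), and Serhl at 2.16 and Slc38a2 at 4.84, both at 0 in the others. LY+FGF4 replicate 3 had Pigh at 37.29 TPM (0 to 1.55) and Trib3 at 17.68 (0). LY+FGF4 replicate 8 had Sars at 150.75 TPM (323.08 to 360.25) and Txnip at 0 (6.13 to 17.29), and the fall of Txnip was lost without it (adjusted p = 0.0527). LY+FGF4 replicate 2 had Slc38a7 at 2.36 TPM (17.41 to 45.26) and Stat3 at 428.99 (147.07 to 170.37).

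The effect of LY differed with and without FGF4, by the interaction term, in 6 genes, with differences on the log2 scale of 2.68 for Ybx3, 3.87 for Rcc2, 1.96 for Wac, -4.34 for Serhl, -4.55 for N4bp2 and -4.12 for Kptn. Serhl, N4bp2 and Kptn lost this call with pseudocount 10 and with the block by gene-number class.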

How the results depend on the processing

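Against 427 genes past the threshold (87 higher, 340 lower), the count was 191 when genes had to be listed in all 14 libraries (86 and 105, of which 72 and 92 were among the 427), 80 with the 14 libraries alone (all among them), 187 with gene number as a covariate (30 and 56 among them), 218 with the block by gene-number class (70 and 148, with 42 and 125 among them), 171 without the libraries under 9000 genes (26 and 145, with 8 and 64 among them) and 111 with library weights (17 and 94, with 17 and 93 among them). Quantile normalization gave 318 (128 higher, 190 lower). Leaving out 1 library gave 282 (without FGF4 replicate 7) to 589 (without LY+FGF4 replicate 7). The 6 interaction genes became 27 without the libraries under 9000 genes, and 4 to 11 without 1 library (11 without LY+FGF4 replicate 3). The 45 genes of LY against DMSO became 19 with the covariate, 134 without the libraries under 9000 genes, 496 with library weights, 28 without trend and robust moderation, and 37 to 61 without 1 library. The gap in gene number was -1674.0 to -1188.9 without 1 library. The cause of these shifts was not tested, except that some settings test fewer genes or libraries.

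With the replicate number as a block, 224 genes passed (52 higher, 172 lower), 63 of the 73, 2 of the interaction (the call of Wac was lost, adjusted p = 0.0726) and 5 of LY against DMSO. The labels do not tie numbers to litters. Deviations of same-numbered FGF4 and LY+FGF4 libraries had a median r of -0.002 (-0.082 to 0.068, 6 pairs), with 1 of 6 correlating best with its own number. No likeness of same-numbered libraries was thus seen, but what the number marks is not known.

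The sign of some genes that did not pass turned. Without the libraries under 9000 genes this was so for Cldn4 (-0.401), Dusp4 (0.07), Lrp2 (-0.486), Pdgfra (0.489), Pik3ca (-0.711), Sox17 (0.343), Sox2 (-0.261) and Uvrag (0.301), the last of which had passed. Gata6 turned to -0.045, -0.022 and -0.08 without LY+FGF4 replicate 2, 6 and 7 (range without 1 library up to 0.329, without LY+FGF4 replicate 8). Nanog turned to 0.135 with pseudocount 10, 0.568 with the covariate, 0.227 with quantile normalization, 0.03 with the replicate block, 0.451 without FGF4 replicate 6, and 0.449, 0.449 and 0.087 without LY+FGF4 replicate 2, 6 and 7 (lowest -0.896, without LY+FGF4 replicate 8). Spry4 turned to 0.159 with the covariate. Of the values of single genes and lists under other settings, 3237 kept direction and call, 345 lost the call, 18 gained it and 223 counts or values moved. TPM holds no depth, so a gene at 0 cannot be told from one missed.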
